A study of Danio rerio with 34 samples.

Results

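The genes described here carry the symbols of 3 families of phase II conjugation enzymes: glutathione transferases (GST), UDP-glucuronosyltransferases (UGT) and cytosolic sulfotransferases (SULT). A symbol does not show the activity of its product, so not every member need be a conjugating enzyme. For example, 1 GST member is classed only as containing a GST C-terminal domain. They were chosen by symbol, as every gene whose name starts with gst, ugt or sult in either case and that had at least 10 counts in 6 or more of the 18 RNA libraries. Of 65 such symbols among 35117 gene identifiers, 54 met the rule: 17 GST, 20 UGT and 17 SULT genes. The members nearest the limit were ugt5b3 and ugt5b5, each with 10 counts in 6 libraries, and the nearest symbols outside it were sult1st4 with 5 libraries and ugt5g2 with 4.

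Phase II enzymes attach a glutathione, glucuronate or sulfate group to foreign compounds and to the body's own steroids, bile pigments, thyroid hormones and lipids, which makes them more water-soluble and easier to export. In the vertebrate liver several of these genes respond to ligands of the aryl hydrocarbon receptor (AHR), the transcription factor that dioxin-like chemicals bind, and others to the oxidative stress factor Nrf2. In the testis the same enzymes also act on sex steroids and on products of lipid peroxidation.

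RNA was measured in testes of adult zebrafish (Danio rerio) held with the solvent DMSO or with PCB126, a dioxin-like polychlorinated biphenyl and strong AHR ligand, at 3 or 10 nM. The exposure lasted 24 hours and the testes were taken 7 days later, a time spent in uncontaminated water, so the values describe the tissue after the exposure had ended. Each group had 6 libraries, called biological replicates by the submitters; the labels name no strain, exact age or pooling of fish. All values below are read counts per gene, printed as CPM (counts of the gene for every 1000000 scaled counts of its library); CPM is not corrected for gene length, so levels are compared between libraries and not between genes.

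The libraries held 16243660 to 29849891 counts, at which 3 counts correspond to 0.0914 to 0.194 CPM. As a check of the exposure, CYP1A1, the cytochrome P450 that AHR ligands induce (zebrafish cyp1a), was 3.49 ± 1.08 CPM in DMSO, 674 ± 233 CPM at 3 nM and 1798 ± 789.9 CPM at 10 nM (SD, n = 6 each). On the first principal component of all genes, with 39.7% of the variance, 5 exposed libraries stood apart from the other 13: replicates 4 and 6 at 3 nM and replicates 1, 5 and 6 at 10 nM. Mitochondrial genes held 3.80% to 7.22% of the counts in those 5 and at most 3.56% in the others. Markers of the testis were present in every library: the sums over 10 spermatocyte genes and over 11 Sertoli cell genes were 3184 to 4894 and 2121 to 3134 CPM in the DMSO libraries, 3246 to 3999 and 2441 to 3595 CPM at 3 nM, and 2443 to 4686 and 2110.2 to 4337 CPM at 10 nM. At 10 nM, 5 of the 10 spermatocyte markers, 1 of the 11 Sertoli cell markers and 3 of 11 Leydig cell markers were called lower and 0 higher. By the same edgeR test, described below, 3.44% of all genes were called lower and 7.40% higher. The median log2 fold changes of the 3 marker lists were -0.48, -0.56 and -0.47. Without the 5 libraries apart 4, 0 and 1 of these markers were called lower, against 0.883% of all genes, with medians of -0.60, -0.11 and -0.31. The Sertoli cell sum, unlike the median, was above the DMSO range in replicates 2, 3 and 6 at 10 nM (3399.6, 3214.4 and 4337 CPM). Of 7 spermatogonia and 9 spermatid and sperm markers tested, 0 were called at 10 nM in either direction, with medians of 0.09 and -0.04. Without the libraries apart 0 were called as well, with medians of 0.21 and -0.13. The part of these cells in the members' values was not tested. Since many phase II genes were high in the same libraries, the fold changes printed for single phase II genes are given both with and without them. The tissue is bulk RNA, in which fewer cells of a type and less RNA per cell cannot be told apart.

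At 10 nM, 11 phase II genes rose and none fell against DMSO, among the 52 that had enough counts to be tested (edgeR quasi-likelihood test, Benjamini-Hochberg adjusted p under 0.05 over all 24053 genes tested). They were 6 GST genes (gstk1, gstt1b, gsto2, GSTZ1, gsta.1 and gsta.2), 3 SULT genes (sult1st1, sult6b1 and sult2st1) and 2 UGT genes (ugt1b5 and ugt5b4). Among all genes 7.40% were called higher and 3.44% lower, and among the tested phase II genes 21.2% were called higher. At an unadjusted edgeR p under 0.05 there were 21 members (40.4% of 52), all of them higher. Of the 24053 genes 33.0% passed in either direction, 4845 higher and 3085 lower. DESeq2 called 12 higher and 0 lower of the 46 members to which it gave an adjusted p, against 12.2% of all genes higher and 8.74% lower by the same tool. Leaving out single libraries gave 4 to 15 members called higher by edgeR, with 4 when DMSO replicate 2 or 10 nM replicate 1 was left out and 5 without DMSO replicate 1 or 10 nM replicate 5. The median log2 fold change was 0.62 over the members, against 0.06 over all genes, and 40 of 52 members lay above 0, against 54.3% of all genes. By family the median was 0.61 for GST, 0.41 for UGT and 0.92 for SULT genes.

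Without the 5 libraries apart the count of members called higher at 10 nM went from 11 to 1, sult1st1, where 1.02% of all genes were called higher; 0 members were called lower, against 0.883%. The median over the members was then 0.11 against -0.01 over all genes, and 62.3% of 53 members tested lay above 0 against 48.9% of all genes. In 10 of the 11 called genes, all but gsta.2, the 3 libraries apart at 10 nM held the 3 highest values of that group. Those libraries were defined by the first principal component of the same expression values, and the 11 genes by a call that includes them. The order was thus partly fixed by these choices and is a description only. The share of all genes with this order was not counted. The part of those libraries' other features in the result was not tested.

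**Figure D1:**
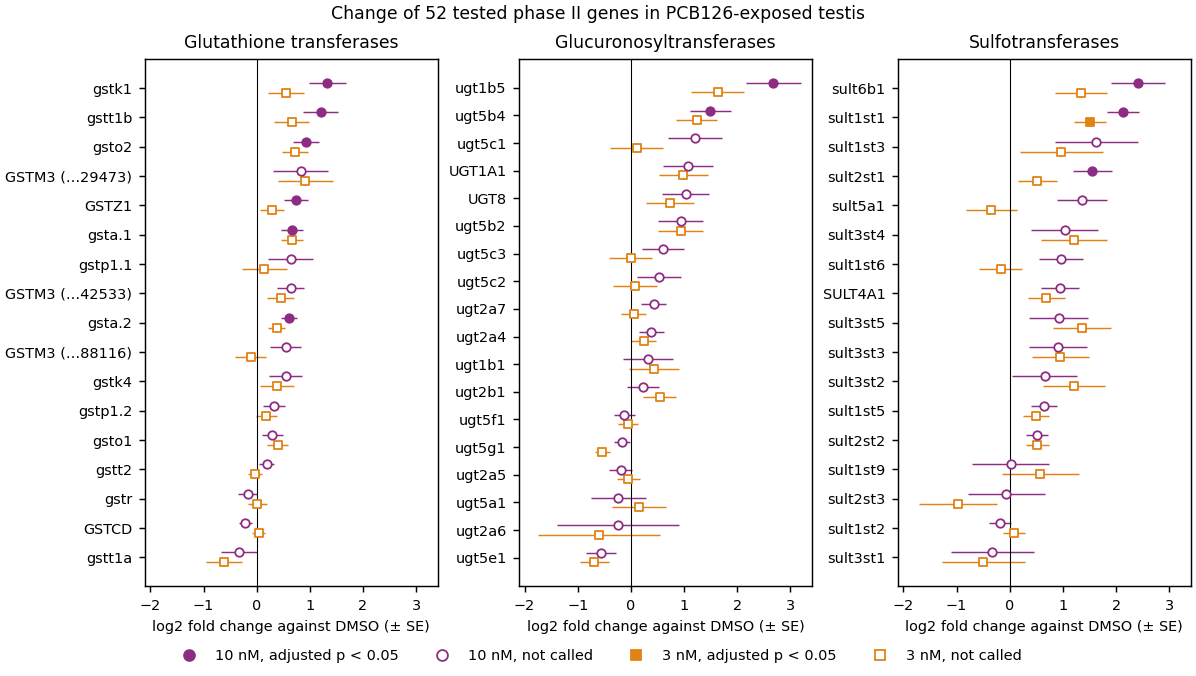
Log2 fold change against DMSO (x axis, ± SE) of the 52 tested phase II genes, by family, at 10 nM (purple circles) and 3 nM (orange squares), with filled symbols for an adjusted p under 0.05. Digits after GSTM3 are the end of the gene identifier. Filled circles mark 6 GST, 2 UGT and 3 SULT genes, all to the right of 0, and 1 filled square marks sult1st1.

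Among the sulfotransferases, sult1st1 rose at both concentrations. It belongs to the SULT1 family, whose members sulfate phenols, estrogens and thyroid hormones in vertebrates. Its levels in the DMSO replicates 1 to 6 were 6.32, 3.38, 7.28, 5.6, 6.08 and 5.58 CPM. At 3 nM they were 13.3, 11.6, 10.6, 14.9, 14.1 and 32.7 CPM, and at 10 nM 38.5, 15.6, 22.6, 14.4, 34.7 and 23.3 CPM. Every exposed library was above every DMSO library, while the exposed groups overlapped each other. The log2 fold change at 10 nM was 2.12 ± 0.30 (SE, adjusted p = 0.000909), a 4.36-fold higher level, and it was called in all 12 fits that each left out 1 library of either group. Without the 5 libraries apart it was 1.61 (adjusted p = 0.0011 in the same edgeR test).

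At 3 nM sult1st1 had a log2 fold change of 1.51 ± 0.30 (SE, edgeR adjusted p = 0.0386) and was the only phase II gene called higher, where 0.129% of all genes were; 0 members were called lower, against 0.0790% of all genes. Without the libraries apart the 3 nM value was 1.12 (edgeR adjusted p = 0.0223), and it was again the 1 member called higher, against 0.167% of all genes, with 0 lower, against 0.0977%. Leaving out single libraries gave adjusted p-values of up to 0.112 and kept the call in 2 of 12 fits, those without replicate 2 or 3 at 3 nM. All 6 libraries at 3 nM lay above the DMSO range.

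The next gene in the same cluster, sult1st2, is a SULT1 gene that RefSeq (GRCz12tu) places beside sult1st1 with no gene of another family between them. It was 7.48 to 11.9 CPM in DMSO, 7.78 to 13.2 CPM at 3 nM and 4.91 to 12.5 CPM at 10 nM, and its log2 fold change at 10 nM was -0.19 (edgeR adjusted p = 0.535). Without the libraries apart that change was -0.31 (adjusted p = 0.482). The log2 ratio of sult1st1 to sult1st2, with 0.1 CPM added to each, was -1.32 to -0.30 in the DMSO libraries, 0.02 to 1.93 in those at 3 nM and 0.63 to 2.2 in those at 10 nM. The ratio was thus higher in every exposed library than in every DMSO library, and the exposed groups overlapped each other. Of 12 neighbouring pairs examined, it was the only one whose ratio in both exposed groups lay outside the DMSO range. The log2 ratio of sult1st9, the other neighbour, to sult1st1 was -4.36 to -2.14 in DMSO. It was -5 to -3.46 at 3 nM and -7.21 to -3.27 at 10 nM, with overlap. The pair of sult1st1 and sult1st2 was picked after its values were seen, so the ratios are a description without a test.

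The largest SULT fold change at 10 nM was that of sult6b1, a member of a family whose substrates are poorly known. The DMSO replicates 1 to 6 held 5.30, 1.71, 3.67, 1.56, 1.54 and 1.83 CPM. At 3 nM the values were 15.5, 3.54, 3.47, 4.28, 3.85 and 8.82 CPM, and at 10 nM 22.7, 5.58, 6.6, 6.73, 24.2 and 17.1 CPM. All 10 nM libraries lay above all DMSO libraries, replicates 1, 5 and 6 by the most, and at 3 nM replicates 1 and 6 lay above the DMSO range. The log2 fold change was 2.41 ± 0.50 (SE, edgeR adjusted p = 0.00991) at 10 nM, called in all 12 leave-one-out fits, and 1.27 (adjusted p = 0.195) without the libraries apart. At 3 nM it was 1.34 ± 0.49 (SE, edgeR adjusted p = 0.27), and also 1.34 in the edgeR fit that left out the libraries apart (adjusted p = 0.339).

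Markers of other tissues were high in some of the same libraries. The summed level of 13 intestine marker genes was 25.7 to 58.7 CPM in DMSO, 26.8 to 205.0 CPM at 3 nM and 28.8 to 202 CPM at 10 nM. Replicate 1 at 3 nM held the 205.0 CPM, and replicates 1 and 5 at 10 nM held 155 and 202 CPM, the libraries in which sult6b1 was highest within their groups. Replicate 6 at 10 nM, with 17.1 CPM of sult6b1, had an intestine sum of 50.0 CPM. At 3 nM replicate 6, the next highest in sult6b1, had a sum of 30.8 CPM. In DMSO the order differed: replicate 5 had the highest sum, 58.7 CPM, and the lowest sult6b1 level, 1.54 CPM. Replicate 1 of DMSO, the highest in sult6b1 with 5.30 CPM, had a sum of 36.8 CPM. FABP2, the intestinal fatty acid binding protein, was at most 0.865 CPM in DMSO, 21.9 CPM at 3 nM and 12.5 CPM at 10 nM, and no intestine marker was at 0 in every library. Of the 13, 2 were called higher at 10 nM, CDH17 and VIL1, and 0 lower, where 7.40% of all genes were called higher and 3.44% lower. The 8 leukocyte markers summed to 185 to 361 CPM in DMSO and 171 to 287 CPM at 3 nM, and to 1003, 1274 and 462 CPM in replicates 1, 5 and 6 at 10 nM against 194 to 304 CPM in replicates 2 to 4. By edgeR 4 of these 8 were called higher at 10 nM and 0 lower. Without the libraries apart 1 was called higher and 0 lower, where 1.02% and 0.883% of all genes were. Liver markers summed to 41.0 to 198 CPM in DMSO, 62.6 to 509 CPM at 3 nM and 60.4 to 755 CPM at 10 nM, with the highest value in replicate 6 at 10 nM. Of 14 liver markers tested, 1 was called higher at 10 nM and 0 lower. Without the libraries apart 0 intestine and 0 liver markers were called in either direction. The part of these tissues in the levels of sult6b1 and of the other called genes was not tested.

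**Figure D2:**
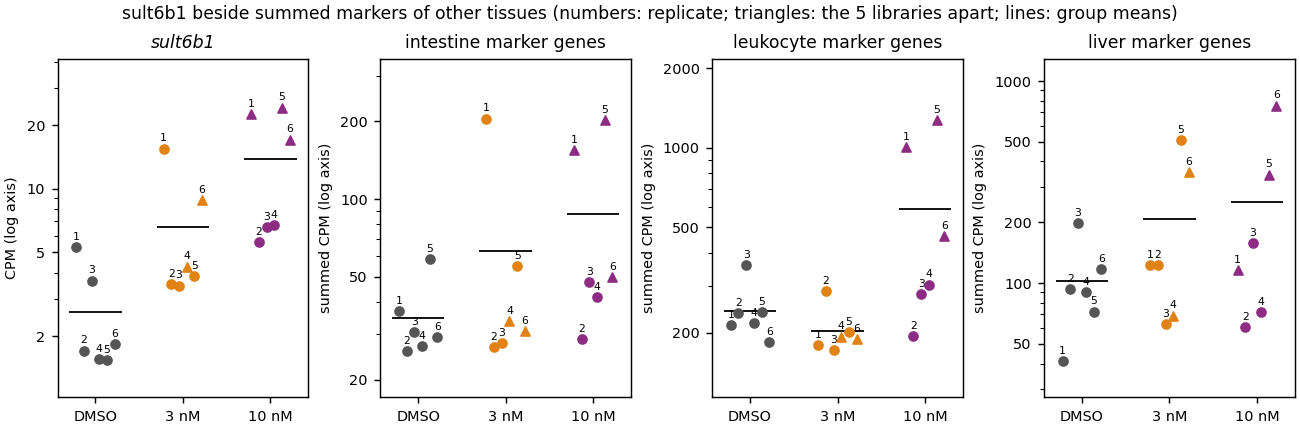
Level of sult6b1 and summed levels of intestine, leukocyte and liver marker genes in each library (CPM, log axes); digits give the replicate, triangles the 5 libraries apart and lines the group means. Replicate 1 at 3 nM and replicates 1 and 5 at 10 nM hold the highest intestine sums. Their sult6b1 levels are 15.5, 22.7 and 24.2 CPM. Replicate 6 at 10 nM holds 17.1 CPM of sult6b1 with an intestine sum of 50.0 CPM. In DMSO replicate 5 holds the highest intestine sum and the lowest sult6b1 level.

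The third called sulfotransferase, sult2st1, belongs to the SULT2 family, which sulfates hydroxysteroids such as dehydroepiandrosterone and pregnenolone. In DMSO its lowest, median and highest values were 10.1, 11 and 19.4 CPM. They were 13.6, 15.7 and 26.4 CPM at 3 nM and 14.1, 27.9 and 76.0 CPM at 10 nM. Only 4 of the 10 nM libraries lay above the DMSO range, the highest being replicates 1 and 5 with 76.0 and 59.8 CPM. The log2 fold change at 10 nM was 1.55 ± 0.37 (SE, edgeR adjusted p = 0.0177), called in all 12 leave-one-out fits, and 0.36 (adjusted p = 0.345) without the libraries apart. Its neighbour sult2st2 was 18.7 ± 2.73 CPM in the DMSO group and 26.7 ± 9.27 CPM in the 10 nM group (SD, n = 6), and its log2 fold change of 0.51 ± 0.21 (SE) did not pass (edgeR adjusted p = 0.101; 0.16 without the libraries apart, adjusted p = 0.568).

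Of the other 14 tested sulfotransferases, none was called at 10 nM by edgeR, with log2 fold changes of -0.33 to 1.62, and 11 of them lay above 0. DESeq2 called 1 of them higher, sult5a1 (1.35, DESeq2 adjusted p = 0.0344), where it called 12.2% of all genes higher. By edgeR sult5a1 was 1.36 ± 0.47 (SE, adjusted p = 0.0634), and 0.39 without the libraries apart (adjusted p = 0.71). sult1st5, a further SULT1 gene among the 3 with the most counts in DMSO, was 12 ± 2.97 CPM in DMSO, 16.8 ± 5.50 CPM at 3 nM and 18.7 ± 6.14 CPM at 10 nM (SD, n = 6; log2 fold change 0.65 ± 0.24, edgeR adjusted p = 0.0805; 0.30 without the libraries apart, adjusted p = 0.428). The 5 SULT3 genes ranged from -0.33 to 1.03 with 0 calls, and each had low counts in several libraries.

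Glucuronosyltransferases showed the largest single fold change of all members, that of ugt1b5. UGT1 enzymes glucuronidate phenols, bilirubin and steroids, and in zebrafish, as in mammals, the genes of a UGT1 cluster are variable first exons joined to shared later exons. The DMSO replicates 1 to 6 of ugt1b5 held 18.1, 9.66, 15.4, 9.56, 6.08 and 2.96 CPM. Replicates at 3 nM held 34.4, 17.6, 34.1, 32.6, 12.9 and 59.4 CPM, and those at 10 nM held 60.7, 37.7, 24.2, 22.1, 118 and 131 CPM. All 10 nM libraries and 4 of the 3 nM libraries lay above the DMSO range. At 10 nM the log2 fold change was 2.68 ± 0.51 (SE, edgeR adjusted p = 0.00681), called in all 12 leave-one-out fits, and 1.44 (adjusted p = 0.119) without the libraries apart. At 3 nM it was 1.63 ± 0.50 (SE, edgeR adjusted p = 0.197), and 1.27 without them (edgeR adjusted p = 0.323).

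ugt1b1, in the same cluster, was 13.2 ± 6.52 CPM in DMSO, 17.8 ± 9.99 CPM at 3 nM and 16.3 ± 8.47 CPM at 10 nM (SD, n = 6), and its log2 fold change at 10 nM was 0.31 ± 0.47 (SE, edgeR adjusted p = 0.653; 0.80 without the libraries apart, adjusted p = 0.252). The log2 ratio of ugt1b5 to ugt1b1 was -0.81 to -0.07 in the DMSO libraries, -0.76 to 3.05 at 3 nM and -0.11 to 4.58 at 10 nM. Both exposed groups overlapped the DMSO group in this ratio. RefSeq draws the ugt1b genes as overlapping with a common 3′ end, so reads from the shared exons cannot be assigned to one of them and both levels are uncertain; the ratio is a description of counts and was chosen after the values were seen.

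**Figure D3:**
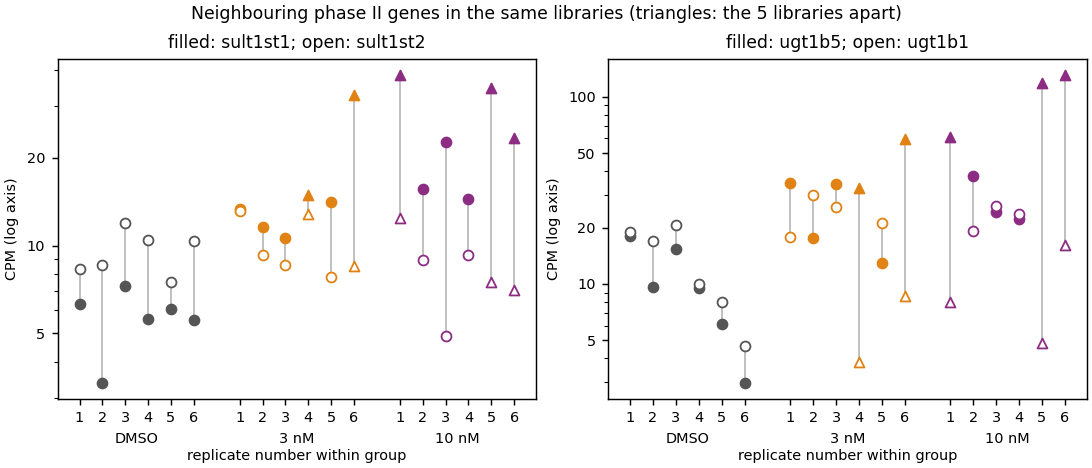
Levels (CPM, log axis) of 2 neighbouring gene pairs in each library, by group and replicate number; filled symbols are sult1st1 (left) and ugt1b5 (right), open symbols sult1st2 and ugt1b1, and triangles the 5 libraries apart. The log2 ratio of the filled to the open symbol is -1.32 to -0.30 in DMSO and 0.02 to 2.2 in the exposed libraries of the left panel, with no overlap, and overlaps between the groups in the right panel. Both pairs were picked from 12 after their values were seen.

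ugt5b4 belongs to UGT5, a UGT family of fish. Its lowest, median and highest values were 0.349, 0.589 and 0.792 CPM in DMSO, 0.589, 1.12 and 2.31 CPM at 3 nM and 0.841, 1.61 and 2.58 CPM at 10 nM. The 10 nM group lay just above the DMSO group, and 4 of the 3 nM libraries lay above it. The gap between 0.792 CPM in DMSO and 0.841 CPM at 10 nM was smaller than 3 counts (0.0914 to 0.194 CPM). ugt5b4 had 527 counts in all 18 libraries together. The log2 fold change at 10 nM was 1.49 ± 0.39 (SE, edgeR adjusted p = 0.0262), called in 8 of 12 leave-one-out fits, and 0.80 (adjusted p = 0.258) without the libraries apart. The ugt5b genes also overlap in RefSeq, which leaves the share of each in the counts uncertain.

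With ugt1b5, sult1st1 and sult6b1, ugt5b4 made 4 members whose 10 nM libraries were all above all DMSO libraries, as were 2.93% of all genes tested. No member lay wholly below DMSO, as 3.20% of all genes did. The UGT with the most counts, ugt5g1, was 101 ± 18.6 CPM in DMSO, 69.7 ± 7.80 CPM at 3 nM and 90.1 ± 20.1 CPM at 10 nM (SD, n = 6). Its log2 fold change at 3 nM was -0.54 ± 0.15 (SE, edgeR adjusted p = 0.167), with all 6 libraries below the DMSO mean; DESeq2 called it lower (adjusted p = 0.0457), the single member so called, where it called 0.567% of all genes lower and 0.758% higher. Without the libraries apart the 3 nM value was -0.59 (edgeR adjusted p = 0.0935). ugt2a7, of the UGT2 family that glucuronidates steroids in mammals, was 21.2 ± 4.95 CPM in the DMSO group and 28.6 ± 13.4 CPM in the 10 nM group (SD, n = 6; edgeR adjusted p = 0.219; log2 fold change -0.20 without the libraries apart, adjusted p = 0.622). The other tested UGT genes that were not called had log2 fold changes of -0.57 to 1.2 at 10 nM, and of the 16 not called 10 lay above 0.

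The 6 glutathione transferases that rose at 10 nM had log2 fold changes of 0.61 to 1.33. They came from the alpha, kappa, omega, theta and zeta classes. gstk1, a kappa-class enzyme of mitochondria and peroxisomes in mammals, had a lowest, median and highest value of 17.7, 21.9 and 29.7 CPM in DMSO, 23.0, 28.3 and 54.7 CPM at 3 nM and 28.6, 35.1 and 115 CPM at 10 nM. Replicates 1 and 5 at 10 nM held 97.4 and 115 CPM, and replicates 2 to 4 lay between 28.6 and 30.0 CPM, near the top of the DMSO range. Its log2 fold change was 1.33 ± 0.34 (SE, edgeR adjusted p = 0.0255) and 0.37 (adjusted p = 0.18) without the libraries apart.

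gstt1b, a theta-class enzyme, was 26.2, 39.6 and 56.7 CPM in DMSO (lowest, median, highest), 40.8, 51.8 and 93.6 CPM at 3 nM and 39.0, 84.9 and 168 CPM at 10 nM. The groups overlapped, and 4 of the 10 nM libraries were above the DMSO range. The log2 fold change at 10 nM was 1.21 ± 0.33 (SE, edgeR adjusted p = 0.0296), and 0.29 (adjusted p = 0.452) without the libraries apart.

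gsto2, of the omega class that reduces dehydroascorbate in mammals, was 6.00, 7.58 and 9.95 CPM in DMSO, 11.5, 13.0 and 14.4 CPM at 3 nM and 7.98, 13.3 and 27.5 CPM at 10 nM. Here the 3 nM group, and not the 10 nM group, lay wholly above DMSO; sult1st1 was the other such member at 3 nM, where 1.03% of all genes had this order and 0.707%, but no member, the opposite one. At 10 nM the log2 fold change of gsto2 was 0.93 ± 0.25 (SE, edgeR adjusted p = 0.0275), and 0.28 (adjusted p = 0.421) without the libraries apart; at 3 nM it was 0.72 ± 0.24 (SE, edgeR adjusted p = 0.243), and 0.66 without the libraries apart (adjusted p = 0.165). The 10 nM fit without those libraries rests on 3 libraries of that group.

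GSTZ1, the zeta-class maleylacetoacetate isomerase of tyrosine breakdown, was 6.89 ± 1.09 CPM in the DMSO group and 11.5 ± 3.56 CPM in the 10 nM group (SD, n = 6; log2 fold change 0.73 ± 0.23, edgeR adjusted p = 0.046; 0.33 without the libraries apart, adjusted p = 0.254). The alpha-class genes, whose mammalian counterparts reduce lipid peroxides and isomerise steroids, moved by similar amounts. gsta.1 was 10.3 ± 1.89 CPM in DMSO, 16.3 ± 4.43 CPM at 3 nM and 16.3 ± 4.39 CPM at 10 nM (SD, n = 6), with a log2 fold change of 0.66 ± 0.20 (SE, edgeR adjusted p = 0.0421) at 10 nM and 0.35 (adjusted p = 0.337) without the libraries apart. At 3 nM the log2 fold change of gsta.1 was also 0.66 ± 0.20 (SE, edgeR adjusted p = 0.194), and 0.48 without those libraries (edgeR adjusted p = 0.342). gsta.2 was 7.14 ± 1.43 CPM in DMSO, 9.25 ± 1.29 CPM at 3 nM and 10.9 ± 1.64 CPM at 10 nM (SD, n = 6). Its log2 fold change, 0.61 ± 0.16 (SE, edgeR adjusted p = 0.025), was 0.50 (adjusted p = 0.0974) without the libraries apart, the smallest proportional move among the 11 genes. The GST calls held in 4 of 12 leave-one-out fits for gsta.1 and GSTZ1, 5 for gstt1b, 6 for gsto2 and 8 for gsta.2 and gstk1.

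**Figure D4:**
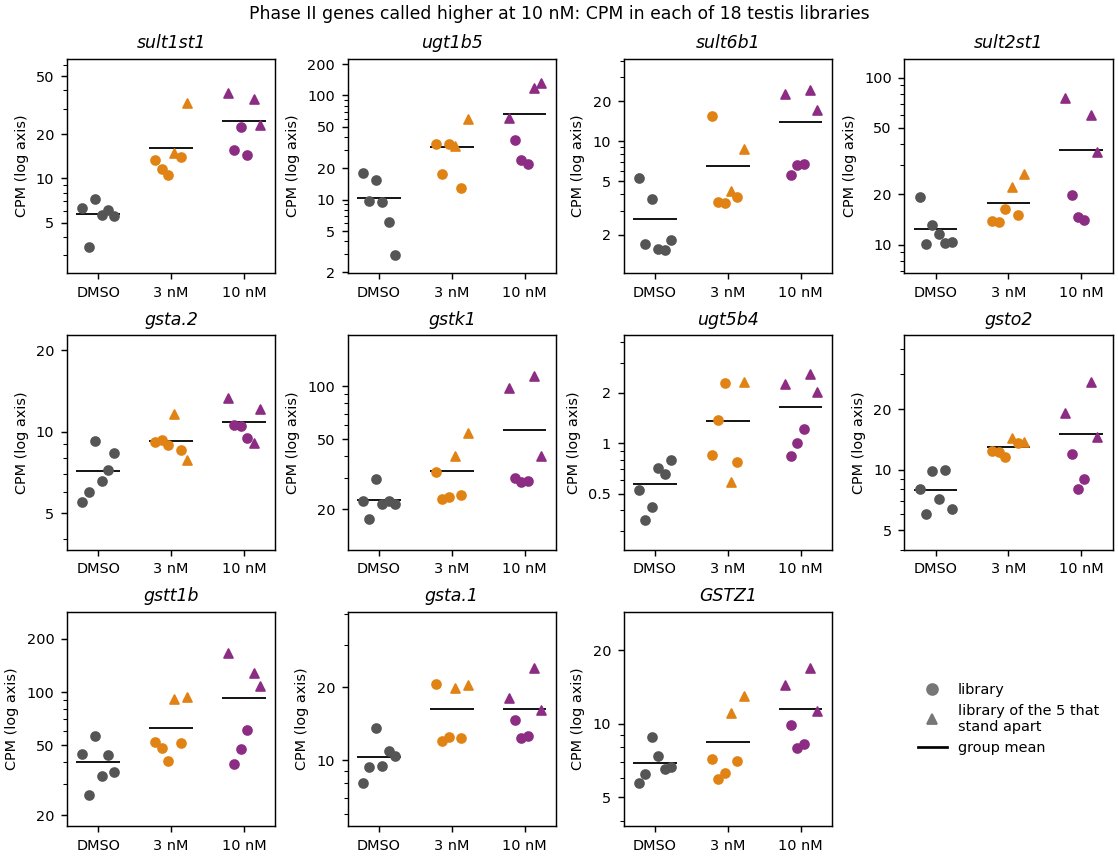
Level (CPM, log axes) of the 11 phase II genes called higher at 10 nM in each of the 18 libraries; horizontal lines are group means and triangles the 5 libraries apart. The group means stand in the order DMSO, 3 nM, 10 nM in all 11 genes, though for gsta.1 the exposed groups are level (16.3 CPM in both after rounding). The genes were chosen by their call at 10 nM, so only the place of the 3 nM mean was free. No member was called between 10 nM and 3 nM by edgeR. The triangles, defined on the same expression values, lie at the top of the 10 nM group in all but gsta.2. The call at 10 nM includes them, so this order was partly fixed by the choice of genes.

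The GST genes with the most counts were not called. GSTM3, a mu-class symbol that the annotation gives to 3 identifiers, had its highest counts in ENSDARG00000042533, with 349 ± 54.0 CPM in DMSO, 477 ± 134 CPM at 3 nM and 545 ± 269 CPM at 10 nM (SD, n = 6). Its log2 fold change at 10 nM was 0.64 ± 0.25 (SE, edgeR adjusted p = 0.0939), and replicates 1 and 5 held 987 and 764 CPM. Without the libraries apart it was 0.006 (edgeR adjusted p = 0.984). The mu-class genes lie side by side in RefSeq, and which RefSeq gene each identifier stands for is not settled here. gstr, of the rho class found in fish, was 337 ± 114 CPM in the DMSO group and 299 ± 44.6 CPM in the 10 nM group (SD, n = 6; log2 fold change -0.17 ± 0.17, edgeR adjusted p = 0.493; -0.22 without the libraries apart, adjusted p = 0.631). gstp1.2, of the pi class, was 299 ± 25.9 CPM in the DMSO group and 374 ± 139 CPM in the 10 nM group (SD, n = 6; log2 fold change 0.33 ± 0.20, edgeR adjusted p = 0.255; -0.13 without the libraries apart, adjusted p = 0.613).

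These 3 genes held 74.5% of all GST counts, and the top 3 held 61.7% of UGT and 56.0% of SULT counts. Of the 9 genes so chosen by their DMSO level, 1 was called at 10 nM, sult2st1. Among all genes 7.40% were called higher and 3.44% lower, and 9 genes are too few to tell their share from that. The 11 called genes had DMSO means of 0.574 to 40.0 CPM. In sum over the family, GST genes held 1130 to 1640 CPM in DMSO, 1300 to 2090 CPM at 3 nM and 1170 to 2520 CPM at 10 nM. The UGT sums were 150 to 231, 153 to 225 and 181 to 360 CPM, and the SULT sums 60.8 to 92.9, 79.2 to 154 and 89.3 to 250 CPM, in the same order of groups. All 3 families overlapped between DMSO and each exposed group in these sums.

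**Figure D5:**
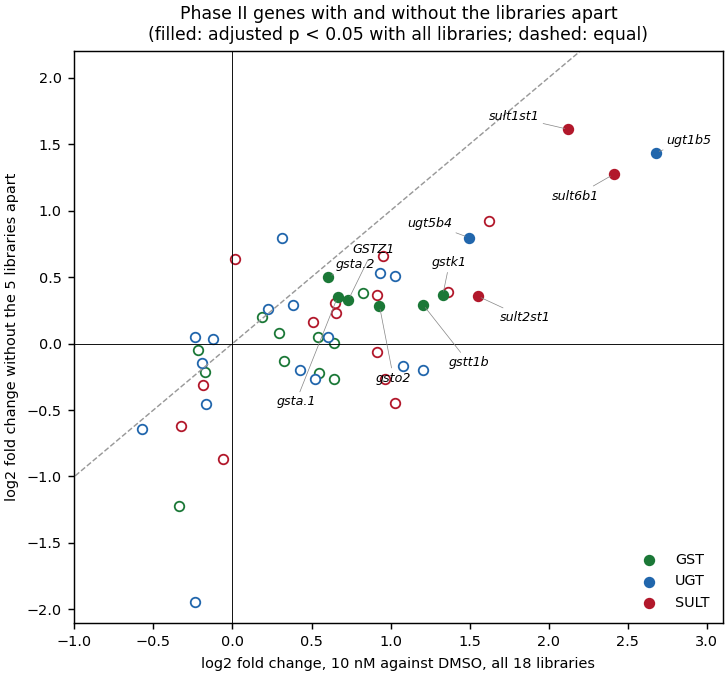
Log2 fold change of each phase II gene at 10 nM against DMSO with all 18 libraries (x axis) and without the 5 libraries apart (y axis); filled points were called with all libraries, and the dashed line marks equal values. All 11 filled points lie below the dashed line and above 0, from 0.28 for gsto2 to 1.61 for sult1st1 on the y axis.

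At 3 nM the median log2 fold change over the members was 0.39, against 0.02 over all genes, and 39 of 52 lay above 0, against 52.2% of all genes. Beside sult1st1, 12 further members had an unadjusted p under 0.05, where 14.2% of all genes did: 10 higher, and 2 lower, the latter both UGT genes. Both concentrations were compared with the same 6 DMSO libraries, so the shared direction of the members' values is not independent between them. Without the libraries apart the median at 3 nM was 0.15 against -0.01 over all genes.

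Between 10 nM and 3 nM no phase II gene was called in either direction by edgeR, where 0.121% of all genes were called higher and 0.00831% lower. At an unadjusted edgeR p under 0.05 there were 10 members (19.2% of 52), all higher at 10 nM. Of the 24053 genes 11.8% passed in either direction, 2029 higher and 801 lower. DESeq2 called 1 member higher, sult5a1, against 2.41% of all genes higher and 0.493% lower. sult5a1 was 0.441 ± 0.247 CPM at 3 nM and 1.47 ± 0.937 CPM at 10 nM (SD, n = 6), a log2 difference of 1.71 ± 0.48 (SE, edgeR adjusted p = 0.115; DESeq2 adjusted p = 0.0285). Leaving out the libraries apart made it 0.57 (edgeR adjusted p = 0.879). sult1st6 had a log2 difference of 1.14 ± 0.41 (SE, edgeR adjusted p = 0.238) and sult2st1 one of 1.03 ± 0.36 (SE, edgeR adjusted p = 0.228); without the libraries apart these were 0.19 (adjusted p = 0.942) and 0.12 (adjusted p = 0.944). For sult1st1 the difference was 0.62 ± 0.29 (SE, edgeR adjusted p = 0.412), and 0.49 (adjusted p = 0.727) without those libraries. The median over the members was 0.20 with all libraries and -0.11 without the 5 apart. With all libraries 34 of 52 members lay above 0, against 50.9% of all genes, and no member had its 10 nM libraries all above the 3 nM ones, as 0.540% of all genes had.

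Genes that supply, accompany or reverse conjugation were examined as lists chosen by function, with earlier results of these data known. Their counts at 10 nM stand beside the 7.40% of all genes called higher and 3.44% called lower (1.02% and 0.883% without the libraries apart). The first list held 8 genes outside the symbol rule, for microsomal glutathione transferases and related proteins, not all of them glutathione transferases. Of these 1 was called higher at 10 nM and 0 lower: MGST3, a membrane-bound glutathione peroxidase. It was 22.7 ± 5.06 CPM in the DMSO group and 43.6 ± 21.3 CPM in the 10 nM group (SD, n = 6). Its log2 fold change was 0.94 ± 0.29 (SE, edgeR adjusted p = 0.0448), and 0.29 without the libraries apart (edgeR adjusted p = 0.473). Among 17 genes of glutathione synthesis and recycling, 2 were called higher, slc7a11 (log2 fold change 1.35), the cystine importer, and DPEP1 (1.34), a dipeptidase of glutathione breakdown, and 1 lower, GGCT (-1.35), a glutamylcyclotransferase. GGCT was 18.4 ± 4.80 CPM in the DMSO group and 7.23 ± 2.69 CPM in the 10 nM group (SD, n = 6), a fall of similar size without the libraries apart, -1.2 (edgeR adjusted p = 0.0194, and 0.0656 without them). Without those libraries slc7a11 was 0.37 (edgeR adjusted p = 0.586) and DPEP1 0.69 (adjusted p = 0.276), and of the 17 genes 0 were called higher and 1 lower. That gene was GCLM, the modifier subunit of the enzyme that limits glutathione synthesis, with -0.53 (edgeR adjusted p = 0.0362), against -0.20 (adjusted p = 0.374) with all libraries.

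None of 8 genes of UDP-glucuronate supply and of glucuronate removal was called in either direction by edgeR. At an unadjusted edgeR p under 0.05 there were 2 of the 8, where 33.0% of all genes passed. A further list held 11 genes of the supply of PAPS, the sulfate donor, and of sulfate removal. Of these 1 was called lower and 0 higher: SLC35B2, a PAPS transporter of the Golgi (log2 fold change -0.55 ± 0.12 (SE), edgeR adjusted p = 0.0122, and -0.38 without the libraries apart, adjusted p = 0.089). Among 14 other conjugating and detoxifying enzymes, 1 was called higher and 0 lower: NAT8L, an N-acetyltransferase that makes N-acetylaspartate in mammals. It was 4.64 ± 1.03 CPM in DMSO, 9.13 ± 1.65 CPM at 3 nM and 11 ± 0.914 CPM at 10 nM (SD, n = 6), with exposed libraries all above the DMSO range. Its log2 fold change was 1.25 ± 0.17 (SE, edgeR adjusted p = 0.000437) at 10 nM and 0.98 ± 0.16 (SE, edgeR adjusted p = 0.0134) at 3 nM, and 1.30 and 0.92 without the libraries apart (edgeR adjusted p = 0.00261 and 0.0362).

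Of 21 efflux and uptake transporters, 2 were called higher, slco2b1 (1.79) and SLCO3A1 (ENSDARG00000068296, 0.88), both organic anion importers, and 1 lower, abcg2a (-0.72), an efflux pump. Of these transporters 0 were called in either direction by edgeR when the libraries apart were left out, with 0.42 for slco2b1 (adjusted p = 0.557), 0.91 for SLCO3A1 (adjusted p = 0.0927) and -0.41 for abcg2a (adjusted p = 0.226). Of 20 Nrf2 and antioxidant genes, 2 were called higher, NFE2L2 (0.60), which encodes Nrf2, and slc7a11, and 1 lower, TXNRD3 (-0.37), a thioredoxin reductase of the testis in mammals. Leaving out the libraries apart gave 0 called higher and 1 lower of the 20, again GCLM; NFE2L2 was 0.17 (edgeR adjusted p = 0.44) and TXNRD3 -0.30 (adjusted p = 0.161), and the median of the list went from 0.11 to -0.07. The list of 11 AHR-responsive genes was likewise drawn up with earlier results of these data known, so its counts are a description. At 3 nM, where 0.129% of all genes were called higher and 0.0790% lower, 6 of these genes were called higher and 0 lower. At 10 nM 10 were called higher and 0 lower. Their median log2 fold change at 10 nM was 2.5, and 2.37 without the libraries apart, where 9 were called higher. The 10 genes and their log2 fold changes at 10 nM were the cytochromes P450 CYP1A1 (9.00), CYP1B1 (6.35), cyp1c1 (4.25) and cyp1c2 (1.83), the receptor ahr2 (1.80), its repressor ahrra (6.34), the ADP-ribosyltransferase tiparp (1.44), cytochrome b5 CYB5A (4.32), and the forkhead genes foxq1b (2.5) and FOXQ1 (2.37). FOXQ1 was the one not called without those libraries (2.37, edgeR adjusted p = 0.145). The other paralog of the repressor, ahrrb, was -0.13 (edgeR adjusted p = 0.682). The medians of the other pathway lists at 10 nM lay between -0.16 and 0.25. At 3 nM NAT8L was the single call among these pathway lists other than the AHR-responsive one.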

How the data were processed

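Total RNA of 18 testes libraries (6 per group) was sequenced as stranded 50 bp single reads, per the labels' protocols. The deposited files hold raw counts per Ensembl gene, 1 file per library; the submitters' processing notes name STAR, HTSeq, edgeR and the GRCz10 build, with no versions, and no strand setting of the counting is stated. Overlapping genes and close paralogs may therefore share or lose reads. RRBS methylation tables were not used here.

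Symbols came from a gene name table, and neighbours from RefSeq (GRCz12tu), where 49 of 54 members matched by symbol. The deposited counts were filtered with filterByExpr, scaled by TMM and fitted in 1 edgeR 4.0.16 quasi-likelihood model of all 18 libraries (15 residual degrees of freedom, R 4.3.3, limma 3.58.1); standard errors are the log2 fold change over the root of F. A gene was called at a Benjamini-Hochberg adjusted p under 0.05 over 24053 genes. A prior count of 2 was used for the log2 CPM behind the principal components and the correlations between libraries. Fold changes came from the fit itself, at its default prior count. The code was tested on simulated data.

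Genes named are the called members, the 3 with the highest DMSO mean per family and the 3 with the smallest p per comparison; genes of the pathway lists are named where called, with all libraries or without the 5 apart. The exceptions sult1st2 and the markers FABP2, CDH17 and VIL1 were chosen after their values were seen. Further exceptions are ahrrb, named though not called, and the genes nearest the limit of the count rule. Members and lists were chosen with earlier results of these data known. Alternatives were RLE scaling, DESeq2 1.42.0, other filters, a replicate block, only the compared groups, every tested symbol, each library left out, and, added after seeing the data, the 5 libraries apart left out and mitochondrial genes left out of the totals. No pair of libraries was identical. Figures were drawn with Python 3.11.15 and matplotlib 3.10.9.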

Additional observations from a re-analysis of the deposited data

Results flagged for a closer look

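Among 63 groups of 6 libraries (21 named members in 3 groups), 5 held a library far from the other 5, where about 3.15 would be flagged by chance. sult1st1 was 32.7 CPM in replicate 6 at 3 nM, with 10.6 to 14.9 CPM in the others. In replicate 1 of DMSO, sult2st1 was 19.4 CPM against 10.1 to 13.1 CPM, sult5a1 was 1.24 CPM against 0.296 to 0.609 CPM, and sult1st5 was 6.47 CPM against 12 to 14.6 CPM in the other DMSO libraries. gstr was 299 CPM in replicate 5 at 3 nM, below the 338 to 357 CPM of the others.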

How the results depend on the processing

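RLE scaling and leaving mitochondrial genes out of the totals changed no direction or call of the 21 named phase II genes. For all genes, the calls at 10 nM against DMSO were 2609, and 4625 by DESeq2, 684 with the replicate block, 1699 with only the 2 groups compared, 468 without the 5 libraries apart, and 826 to 3855 with single libraries left out. At 3 nM they were 50, and 311 by DESeq2, 26 with the block and 25 to 55 with libraries left out. Between 10 and 3 nM they were 31, and 695 by DESeq2, 64 with the filter of 1 CPM, 0 with the block, with only the 2 groups and without the 5 apart, and 0 to 355 with libraries left out.

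Members called higher at 10 nM numbered 11, and 3 with the block (sult1st1, sult6b1 and ugt1b5), 1 without the 5 apart and 4 to 15 with libraries left out: 5, 4, 7 and 7 without DMSO replicates 1, 2, 4 and 6, and 4 and 5 without 10 nM replicates 1 and 5. At 3 nM the count of 1 became 2 by DESeq2 (with ugt1b5), 0 with the block and 0 to 1 with libraries left out; DESeq2 called 1 lower, ugt5g1 (adjusted p = 0.0457). Between 10 and 3 nM DESeq2 called 1 (sult5a1) and libraries left out gave 0 to 0. Counts called lower at 10 nM were 0 to 0 with libraries left out. Replicate numbers did not pair libraries: over 18 same-numbered pairs r was -0.486 to 0.338, 6 pairs were over 0.1, and 4 of 18 libraries correlated best with their own number.

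Without the 5 apart the sign turned for gstp1.2 (-0.133), ugt2a7 (-0.198) and sult1st6 (-0.264) at 10 nM, GSTZ1 (-0.059) and gstr (-0.002) at 3 nM, and between 10 and 3 nM for gsto2 (-0.372), sult6b1 (-0.071), ugt5b4 (-0.395), GSTM3 (-0.179), gstp1.2 (-0.151) and ugt2a7 (-0.243); none of these values was called. gstr at 3 nM was -0.001 with no filter, and gsta.1 between 10 and 3 nM 0.007 with the filter of 1 CPM and 0.001 with only the 2 groups. With single libraries left out, values that turned ranged at 3 nM from -0.088 to 0.166 (gstr), -0.004 to 0.150 (ugt2a7) and -0.671 to 0.042 (sult5a1), and between 10 and 3 nM from -0.146 to 0.077 (gsta.1), -0.056 to 0.323 (gsto2), -0.060 to 0.345 (GSTM3), -0.029 to 0.253 (gstp1.2), -0.334 to 0.082 (ugt1b1), -0.171 to 0.103 (sult2st2) and -0.024 to 0.294 (sult1st5). The cause was not tested. Members with few counts, such as the SULT3 genes, allow only large differences to be seen.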
